A study of Mus musculus with 48 samples.

Results

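The genes studied were 58 mouse genes whose symbols place them in the glutathione S-transferase, UDP-glucuronosyltransferase, sulfotransferase and aldo-keto reductase families. They were taken by symbol from 54532 genes in the count table: names starting with Gsta, Gstk, Gstm, Gstp or Gstt and a digit, Ugt1 or Ugt2, Sult1, Akr1b or Akr1c, without 3 pseudogenes. By family there were 5 alpha, 7 mu, 3 pi, 4 theta and 1 kappa glutathione transferases, 9 genes of the Ugt1 and 10 of the Ugt2 family, 6 of the Sult1 family, and 4 Akr1b and 9 Akr1c genes. The 13 Akr1b and Akr1c genes encode reductases of carbonyl groups. They do not conjugate, so the set is broader than conjugation. Their genes are described apart, but the summed levels of all members and the counts of members include them. Most members lie in clusters (GRCm38, from GENCODE release M21). Gsta1 is at chr9:78230656-78242684 on the plus strand with Gsta2 at chr9:78331018-78355788 on the minus strand, and Gsta3 is at chr1:21240589-21265661. Ugt1a1, at chr1:88211959-88218997, is the last gene of the Ugt1a array, Sult1b1 and Sult1d1 are neighbours at chr5:87513339-87538195 and chr5:87554645-87569027, and Akr1c19 is at chr13:4228700-4252843.

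RNA was sequenced from small intestine, described as whole-thickness, of C57Bl/6J mice of both sexes. Duodenum, the piece next to the stomach, and ileum, the piece next to the caecum, were each taken as 2 cm of gut. The 8 ages ran from day 0 (birth) in steps of 2 days to day 8, and then from week 2 in steps of 1 week to week 4. The pups stayed with their dam until day 21 and then received chow, and the housing is labelled standard germ-free. There were 3 samples per region and age, except 2 at day 6 in each region, which gave 46 samples in 16 groups. Several ages came from 1 litter, and the labels do not say which samples share a litter or an animal, so p-values measure the spread between these samples only.

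These enzymes handle foreign compounds, bilirubin, steroids and bile acids in the gut wall before the blood carries them to the liver. Glutathione transferases join glutathione to reactive electrophiles, UDP-glucuronosyltransferases add glucuronic acid, and cytosolic sulfotransferases add sulfate from the donor PAPS. The products are more soluble and leave the cell through efflux pumps. In the small intestine they are found mainly in enterocytes, the absorptive cells of the villus. The samples were bulk tissue, where fewer cells of a type and less RNA per cell cannot be told apart.

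Several members have near-identical copies or shared exons, and the sequences show where reads can be told apart. The Ugt1a genes lie in one array on chromosome 1 (mm10), where each gene has its own first exon joined to common later exons. The first 60 coding bases of 4 members are given in lower case, 5′ to 3′, from GENCODE release M21, followed by the start of the coding stretch of 740 bases at the 3′ end that these genes share letter for letter.
Ugt1a1: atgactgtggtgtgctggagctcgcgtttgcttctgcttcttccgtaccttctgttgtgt
Ugt1a6a: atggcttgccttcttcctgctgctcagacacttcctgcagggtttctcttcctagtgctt
Ugt1a7c: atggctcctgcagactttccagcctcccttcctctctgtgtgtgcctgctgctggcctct
Ugt1a9: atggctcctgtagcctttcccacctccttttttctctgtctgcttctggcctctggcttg
Ugt1a, shared: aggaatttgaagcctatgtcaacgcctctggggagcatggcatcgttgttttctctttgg
The levels of these 4 genes therefore rest on reads over the first exons, with reads over the shared part divided by the quantification model.

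Gsta1 and Gsta2, a pair with opposite changes from week 2 to week 3 in the ileum, differ at 14 of 669 aligned coding bases (97.9% identity). Bases 449 to 508 of Gsta1 and the matching stretch of Gsta2 are shown because they hold 5 of those differences, in capitals.
Gsta1: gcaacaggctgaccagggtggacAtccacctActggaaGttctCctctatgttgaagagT
Gsta2: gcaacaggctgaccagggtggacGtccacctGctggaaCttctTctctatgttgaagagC
Of the runs of 31 bases in Gsta1 transcripts, 92.9% also occur in another gene, most often in Gm3776, which lies outside the set. The model could therefore split Gsta1 reads. Gm3776 itself changed by 7.15 ± 0.60 (log2, SE) from week 2 to week 3 in the duodenum and by 5.69 ± 0.56 in the ileum (edgeR quasi-likelihood test, adjusted p = 3.5e-11 and 7.7e-10). Gstp1 and Gstp2 are 98.1% identical over their coding sequence and Akr1c12 and Akr1c13 are 96.2% identical, so the division of counts within each pair is uncertain too.

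Of the 58 members, 49 passed edgeR's filter on low counts among 21986 genes that did. The other 9 (Gstt4, Ugt1a8, Ugt1a10, Ugt2b37, Sult1c1, Sult1e1, Akr1c6, Akr1c18 and Akr1c20) were never above 0.333 CPM in any sample (CPM is edgeR's measure of counts per 1e6 counts of the library, after TMM scaling). A mean of at least 10 CPM in some group was reached by 36 members, and these are described one by one. The other 13 passed the filter at lower levels, from a highest group mean of 0.156 CPM in Ugt2a1 to one of 8.94 CPM in Akr1b10. Library totals ran from 16824021 to 65042327 counts. The members together took 0.153% to 0.558% of counts in the duodenum and 0.153% to 0.384% in the ileum. All 9 enterocyte markers were above 0 in every group, while the ileal marker Fabp6 was at 0 in the duodenum at day 6 and week 2.

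The day 6 samples numbered 3 were left out by the rule that set the members and samples. Their values of Gsta2 and Ugt1a6a, members that differ between regions, went against their labels. The sample labelled duodenum had 18.5 CPM of Gsta2 and 7.15 CPM of Ugt1a6a, where the other two duodenal samples had 0.906 and 1.90 CPM of Gsta2 and 77.2 and 90.7 CPM of Ugt1a6a. The sample labelled ileum had 1.06 CPM of Gsta2 and 86.4 CPM of Ugt1a6a, where the other two ileal samples had 18.8 and 20.5 CPM and 6.96 and 5.16 CPM. Each thus stood with the samples of the opposite region for both genes. These CPM are scaled over all 48 samples and so differ slightly from those given later. Day 6 means come from the remaining 2 samples in each region.

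The summed level of all members fell and rose again with age. In the duodenum it was 3334 ± 280 CPM at day 0 (SD, n = 3), 1849 ± 107 at week 2, 5552 ± 799 at week 3 and 5070 ± 539 at week 4. In the ileum the same sum was 3326 ± 175, 1810 ± 155, 3522 ± 489 and 2061 ± 648 CPM. The regions were thus close at day 0 and week 2 and separate at week 3 and week 4. These sums include the Akr genes. From day 0 to week 4 in the ileum, mean Akr1c19, Akr1c13 and Akr1c12 went from 762, 272 and 114 CPM to 14.5, 22.6 and 30.5. Mean Akr1c14 went from 12.6 to 27.8 CPM. The ileal course of the sum is therefore not that of the conjugating genes alone. Among genes compared per kilobase of transcript, Akr1c19 ranked first at day 0 in both regions, with 613 CPM per kilobase in the ileum and 499 in the duodenum. The first place at week 4 was held by Gstm3 in the duodenum, with 370 CPM per kilobase, and by Ugt2b34 in the ileum, with 171.

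**Figure D1:**
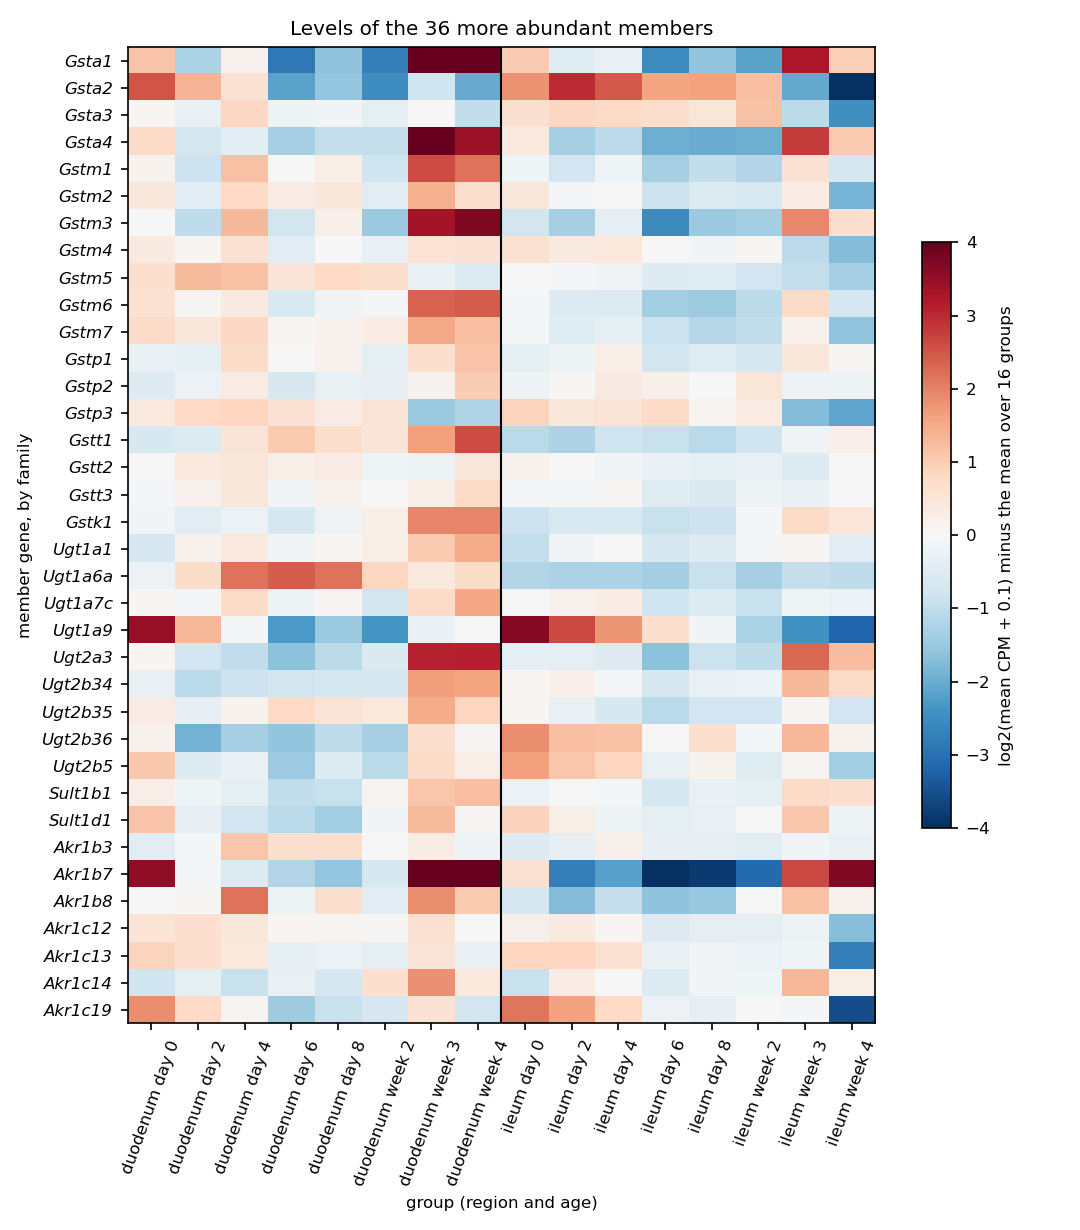
Levels of the 36 members with a group mean of at least 10 CPM (rows, by family) in the 16 groups (columns, region and age), as log2 of the mean CPM plus 0.1, minus the row's mean over groups; colours stop at 4 and -4. Red cells gather in the duodenum at week 3 and week 4, and the ileum at week 4 holds blue cells for many glutathione transferases and Akr1c genes.

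Age changed most members in both regions. By edgeR's quasi-likelihood F test over 8 ages, with Benjamini-Hochberg adjusted p under 0.05 as the call, 44 of 49 members were called in the duodenum, where 67.4% of all genes tested were. In the ileum 39 of 49 were called, against 58.7% of all genes.

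Between birth and week 2 more members fell than rose. In the duodenum 19 members fell and 5 rose of 49, against 23.5% of all genes called, and the median log2 change was -0.64 for the members and -0.05 for all genes. In the ileum 19 fell and 4 rose, against 12.3% of all genes called, 6.43% that rose and 5.92% that fell, with medians of -0.64 and 0.00. From week 2 to week 3, the time of weaning, the direction turned. In the duodenum 32 members rose and 2 fell, against 18.3% of all genes called and 7.7% that rose, and the median change was 1.35 for the members and 0.03 for all genes. In the ileum 21 rose and 6 fell, against 26.8% of all genes called and 12.9% that rose, with medians of 0.71 and 0.03. All 21 ileal risers were among the 32 duodenal ones. Both falls and rises met in 19 duodenal members, which fell by week 2 and rose at week 3, and in 12 ileal ones.

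Between week 3 and week 4 more members fell than rose, and whether this change differed between regions was not tested. In the ileum 20 members fell and 2 rose, against 16.1% of all genes called, 8.26% that rose and 7.81% that fell, and the median change was -0.69 for the members and 0.00 for all genes. Of the 21 members that had risen at week 3 in the ileum, 14 fell again by week 4. The summed markers of leukocytes in the ileum ran from 20.1 to 25.3 CPM at week 3 and from 135 to 352 at week 4, and those of 9 enterocyte markers had a median of 18431 CPM at week 3 and 13024 at week 4, none of either list at 0. Of the enterocyte markers 2 fell and none rose, with a median log2 change of -0.18. The part of these cells in the ileal falls was not tested. In the duodenum 10 fell and 4 rose, against 12.7% of all genes called, 7.75% that rose and 4.96% that fell. The count of 14 was 8 without duodenum week 4 sample 2 and 9 without duodenum week 3 sample 1. Of the 9 enterocyte markers 5 rose and none fell at this step in the duodenum, with a median log2 change of 0.64. Their part in the duodenal changes was not tested. Of the 32 duodenal risers 8 fell, 2 rose further (Gstt1 and Ugt1a7c) and 22 were not called. The further rise of Gstt1 was not called without duodenum week 3 sample 1 (edgeR, adjusted p = 0.0761) or duodenum week 4 sample 3 (0.0567), and that of Ugt1a7c without duodenum week 3 sample 1 (0.0501), duodenum week 3 sample 3 (0.0621) or duodenum week 4 sample 3 (0.0980). Week 4 against day 0 gave 22 members higher and 11 lower in the duodenum, against 40.5% of all genes called, 20.4% higher and 20.1% lower. In the ileum it gave 11 higher and 16 lower, against 41.9%, 21.5% and 20.4%. All 6 week 4 samples had Xist without the Y-linked Ddx3y above 1 CPM, against 1 of 3 samples in each region at week 3. Both genes were above 1 CPM in 2 of 3 duodenal samples at week 3. At day 0 both were above 1 CPM in 3 of 3 duodenal and 1 of 3 ileal samples. Sex gene levels thus differed between the ages compared. With a sex index in the model of week 4 against week 3 the members called were 22 in the ileum and 15 in the duodenum.

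The alpha glutathione transferases, which also reduce lipid peroxides and bind bilirubin, held the largest rise among the 36 members. They also held opposite changes from week 2 to week 3 in the ileum. Gsta1 in the duodenum was at 24.2, 30.1 and 24.1 CPM at day 0, at 2.51, 0.834 and 1.64 at week 2, at 334, 307 and 253 at week 3 and at 336, 130 and 253 at week 4. In the ileum Gsta1 was at 1.85, 2.57 and 3.40 CPM at week 2, at 100, 127 and 104 at week 3 and at 33.4, 11.6 and 23.1 at week 4. Every week 3 sample lay far above every week 2 sample of its region, and ileum week 4 samples lay between them. The rise of Gsta1 was 7.48 ± 0.68 (log2, SE) in the duodenum and 5.41 ± 0.62 in the ileum (edgeR, adjusted p = 3.3e-10 and 2.0e-08). Its fall from week 3 to week 4 was called in the ileum (-2.29 ± 0.53, adjusted p = 0.0021) and not in the duodenum (-0.32 ± 0.50, adjusted p = 0.73).

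Gsta4, whose enzyme prefers the lipid peroxidation product 4-hydroxynonenal, followed the same course at a lower level. It was at 4.53, 1.85 and 3.11 CPM at week 2 and at 141, 116 and 91.9 at week 3 in the duodenum. Ileal samples were at 1.36, 1.76 and 1.54 CPM at week 2, at 48.0, 47.2 and 35.9 at week 3 and at 14.3, 4.75 and 20.5 at week 4. No week 3 sample overlapped the week 2 samples of its region. The rises were 5.20 ± 0.50 and 4.81 ± 0.50 on the log2 scale (edgeR, adjusted p = 4.4e-10 and 1.5e-09), and the ileal fall to week 4 was -1.75 ± 0.43 (adjusted p = 0.0035). That fall was not called in a model of the compared groups only (adjusted p = 0.0988).

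Gsta2 went the other way from week 2 to week 3 in the ileum. It was at 18.7, 29.2 and 19.9 CPM there at day 0, at 38.0, 60.4 and 55.6 at day 2, at 12.6, 15.3 and 16.8 at week 2, at 2.80, 0.627 and 1.01 at week 3 and at 0.0583, 0.0310 and 0.200 at week 4. In the duodenum Gsta2 was at 24.6, 42.4 and 45.1 CPM at day 0, at 1.27, 1.12 and 0.810 at week 2, at 4.91, 3.17 and 2.88 at week 3 and at 1.67, 0.667 and 2.23 at week 4. The duodenum thus lost most of its Gsta2 in the first 2 weeks. The ileum still had 12.6 to 16.8 CPM at week 2, below its 38.0 to 60.4 CPM at day 2. At week 2 the ileum was higher by 3.82 ± 0.38 (log2, SE) and at week 4 lower by a difference of -4.19 ± 0.65 (edgeR, adjusted p = 6.4e-09 and 1.6e-05). From week 2 to week 3 Gsta2 rose by 1.80 ± 0.37 in the duodenum and fell by 3.29 ± 0.37 in the ileum (adjusted p = 0.00036 and 6.0e-09).

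Gsta3, another alpha member, also fell at weaning in the ileum. It was at 21.5, 24.9 and 27.5 CPM there at week 2, at 5.88, 6.23 and 3.62 at week 3 and at 2.27, 2.02 and 1.47 at week 4. In the duodenum Gsta3 was at 10.3, 8.19 and 6.46 CPM at week 2 and at 9.15, 13 and 9.96 at week 3. The ileal samples of week 3 lay below all ileal samples of week 2, and the duodenal ones overlapped. The change was -2.23 ± 0.26 (log2, SE) in the ileum and 0.36 ± 0.24 in the duodenum (edgeR, adjusted p = 7.6e-09 and 0.34). The fifth alpha member, Gsta5, did not exceed 4.12 CPM in any sample.

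**Figure D2:**
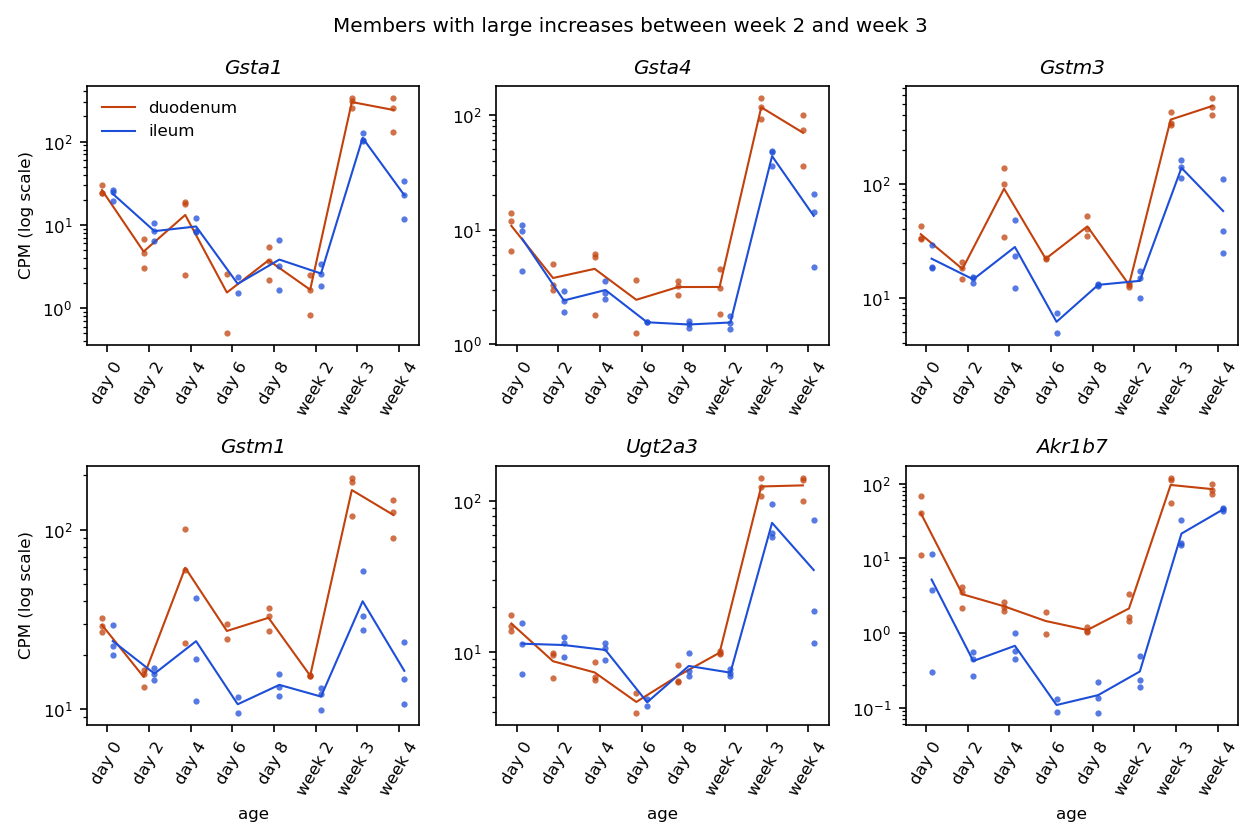
CPM on a log scale by age for 6 members with large increases between week 2 and week 3; points are samples and lines join group means, duodenum in orange and ileum in blue. Gsta1 climbs from 0.834 to 3.40 CPM at week 2 to 100 to 334 CPM at week 3 over both regions.

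The mu glutathione transferases, encoded side by side on chromosome 3, mostly rose at week 3. In the duodenum 6 of 7 rose and 1 fell (Gstm5), and in the ileum 5 rose, 1 fell (Gstm4) and 1 was not called. Gstm3 was the most abundant. In the duodenum Gstm3 was at 13, 13.4 and 12.5 CPM at week 2, at 431, 343 and 329 at week 3 and at 572, 407 and 475 at week 4. Ileal samples were at 9.94, 14.9 and 17.3 CPM at week 2, at 112, 161 and 142 at week 3 and at 110, 24.5 and 38.8 at week 4. Ileum week 4 sample 1 stood at the week 3 level and the other two below it. The rise of Gstm3 was 4.82 ± 0.47 (log2, SE) in the duodenum and 3.30 ± 0.43 in the ileum (edgeR, adjusted p = 6.1e-10 and 2.3e-07). Its ileal fall by week 4 was -1.26 ± 0.40 (adjusted p = 0.027) and was not called without ileum week 3 sample 2 (adjusted p = 0.0892), ileum week 4 sample 2 (0.139) or ileum week 4 sample 3 (0.117).

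Gstm1, the mu enzyme with broad activity toward epoxides, was at 15.4, 15.2 and 15.5 CPM at week 2 and at 195, 184 and 119 at week 3 in the duodenum. In the ileum Gstm1 went from 9.92, 12.2 and 13.1 CPM to 33.2, 59.1 and 27.4 and was at 23.7, 10.7 and 14.7 at week 4. The rises were 3.43 ± 0.39 and 1.76 ± 0.37 (edgeR, adjusted p = 1.6e-08 and 0.00031). Both regions had no overlap between week 2 and week 3, and ileum week 4 samples overlapped the week 2 range.

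Gstm2, Gstm6 and Gstm7 rose in both regions. Their log2 changes from week 2 to week 3 were 1.83 ± 0.26, 2.47 ± 0.27 and 1.25 ± 0.28 in the duodenum and 0.90 ± 0.26, 1.83 ± 0.27 and 1.17 ± 0.29 in the ileum. The ileal rise of Gstm2 was not called without ileum week 3 sample 2 (edgeR, adjusted p = 0.0573). By week 4 all 3 had fallen again in the ileum, by log2 changes of -2.19 ± 0.27, -1.47 ± 0.28 and -1.81 ± 0.31. Gstm2 then stood at 9.38, 4.72 and 5.95 CPM, under its day 0 values of 32.7, 37.4 and 31.2.

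Gstm4 rose in the duodenum and fell in the ileum, and Gstm5 fell in the duodenum. Gstm4 was at 11.3, 8.12 and 8.32 CPM at week 2 and at 17.0, 16.7 and 16.2 at week 3 in the duodenum, while in the ileum it went from 10.2, 11.9 and 13.4 CPM to 4.28, 6.56 and 5.35. The changes were 0.85 ± 0.21 and -1.13 ± 0.22 (edgeR, adjusted p = 0.0036 and 0.00011), with no overlap of samples in either region. Gstm5 in the duodenum fell from 35.8, 23.1 and 29.5 CPM to 16.4, 13.5 and 15.2, a change of -0.97 ± 0.21 (adjusted p = 0.00072). In the ileum Gstm5 changed by -0.20 ± 0.22 (adjusted p = 0.54). Day 4 was uneven for these genes: Gstm3 was at 34.4, 99.2 and 139 CPM in the duodenum and at 12.2, 48.4 and 23.1 in the ileum at that age.

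The pi transferases were already expressed at birth. Gstp1 in the duodenum was at 99.4, 86.0 and 88.0 CPM at day 0, at 77.1, 91.2 and 85.3 at week 2, at 167, 173 and 168 at week 3 and at 263, 208 and 257 at week 4. In the ileum Gstp1 was at 60.8, 70.1 and 74.6 CPM at week 2, at 120, 187 and 137 at week 3 and at 150, 86.5 and 105 at week 4. It rose at week 3 by 1.00 ± 0.23 in the duodenum and by 1.11 ± 0.23 in the ileum (log2, edgeR, adjusted p = 0.0015 and 0.00030). Gstp3 moved against it in both regions. It was at 19.1, 16.7 and 16.4 CPM at week 2 and at 4.50, 4.46 and 3.75 at week 3 in the duodenum, and at 14.6, 13.3 and 17.7 and then at 4.08, 4.05 and 2.70 in the ileum. The falls were -2.04 ± 0.22 and -2.07 ± 0.22 (adjusted p = 2.5e-09 and 2.0e-09). Gstp3 was the 1 member of 49 that fell at week 3 in both regions. Gstp2 was at 56.5, 45.7 and 62.2 CPM at week 4 in the duodenum and at 34.8, 17.4 and 18.0 in the ileum.

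Among the theta and kappa transferases, Gstt1 rose stepwise in the duodenum. It was at 2.55, 3.37 and 3.95 CPM at day 0, at 8.39, 7.25 and 6.81 at week 2, at 13, 21.2 and 15.3 at week 3 and at 35.4, 24.0 and 38.7 at week 4. In the ileum Gstt1 went from 2.70, 2.55 and 2.09 CPM at day 0 to 9.79, 3.44 and 4.88 at week 4. No sample of week 4 overlapped day 0 in either region. The change from day 0 to week 4 was 3.31 ± 0.29 (log2, SE) in the duodenum and 1.30 ± 0.29 in the ileum (edgeR, adjusted p = 6.3e-12 and 0.00032). Gstk1, which lies in mitochondria and peroxisomes, rose at week 3 by 1.72 ± 0.24 in the duodenum and 0.83 ± 0.23 in the ileum (adjusted p = 4.8e-07 and 0.0062). The ileal call of Gstk1 was lost without ileum week 3 sample 2 (adjusted p = 0.0816). Gstt2 and Gstt3 were not called at week 3 in either region.

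The Ugt1 family is the one that holds bilirubin glucuronidation, the task of Ugt1a1. In the duodenum Ugt1a1 was at 120, 133 and 108 CPM at day 0, at 229, 232 and 221 at week 2, at 405, 438 and 340 at week 3 and at 455, 576 and 587 at week 4. In the ileum it was at 111, 111 and 77.9 CPM at day 0, at 164, 175 and 217 at week 2, at 186, 252 and 177 at week 3 and at 215, 141 and 78.0 at week 4. Every duodenal sample of Ugt1a1 lay above every one of the preceding of these ages, while the ileal samples stayed within 78.0 to 252 CPM in the ileum from week 2 on. The change from day 0 to week 4 was 2.16 ± 0.22 (log2, SE) in the duodenum and 0.53 ± 0.21 in the ileum (edgeR, adjusted p = 2.5e-10 and 0.041). The ileal call was lost without ileum day 0 sample 3 (adjusted p = 0.206), ileum week 4 sample 1 (0.755) or ileum week 4 sample 2 (0.0570).

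Ugt1a9 marked the newborn gut. It was at 184, 170 and 129 CPM at day 0 in the duodenum and at 184, 175 and 181 in the ileum. By week 2 it was at 2.37, 2.83 and 2.76 CPM in the duodenum and at 4.75, 6.61 and 6.38 in the ileum. These falls were -5.92 ± 0.36 and -4.92 ± 0.34 on the log2 scale (edgeR, adjusted p = 5.1e-15 and 1.8e-13). At week 3 the regions parted: Ugt1a9 was at 8.60, 16.3 and 11.3 CPM in the duodenum and at 3.20, 2.17 and 2.46 in the ileum, and at week 4 at 14.2, 6.78 and 22.3 and at 1.57, 0.621 and 2.34. The change at week 3 was 2.18 ± 0.32 in the duodenum and -1.17 ± 0.33 in the ileum (adjusted p = 1.8e-06 and 0.0057).

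Ugt1a6a, of the phenol-conjugating branch, was high between day 4 and day 8 in the duodenum. It was at 9.92, 13 and 16.5 CPM at day 0, at 45.2, 82.3 and 85.9 at day 4, at 77.0 and 90.5 at day 6, at 68.8, 71.7 and 73.2 at day 8 and at 26.3, 22.1 and 37.2 at week 2. In the ileum all Ugt1a6a samples lay between 4.68 and 11.1 CPM. At day 6 and day 8 of this duodenal peak the summed level of all members was low, at 1648 and 1775 CPM. Averaged over ages, the ileum was lower by a log2 difference of -2.32 ± 0.10 (edgeR, adjusted p = 1.6e-20). Ugt1a7c was at 74.8, 89.3 and 78.7 CPM at week 2, at 220, 259 and 204 at week 3 and at 336, 337 and 496 at week 4 in the duodenum. In the ileum it was at 58.4, 78.2 and 80.8, at 120, 137 and 97.9 and at 135, 135 and 69.9 CPM at the same ages. Ugt1a7c rose at week 3 by 1.49 ± 0.22 and 0.71 ± 0.21 (adjusted p = 1.3e-06 and 0.011), and the ileal call was lost without ileum week 2 sample 1 (0.0860) or ileum week 3 sample 2 (0.0680).

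**Figure D3:**
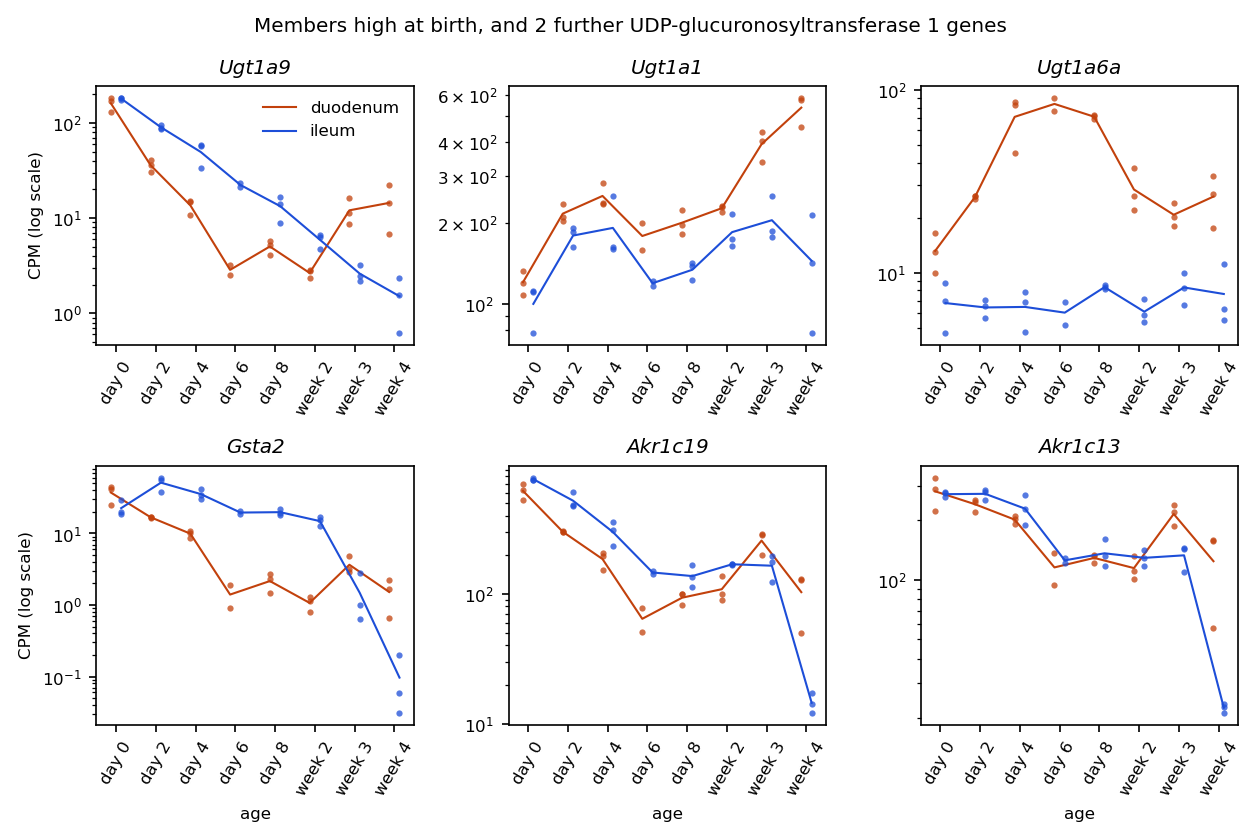
CPM on a log scale by age for 4 members that were high at birth (Ugt1a9, Gsta2, Akr1c19 and Akr1c13) and for Ugt1a1 and Ugt1a6a; points are samples and lines join group means. Ugt1a6a peaks at 77.0 and 90.5 CPM at day 6 in the duodenum, while its ileal samples stay between 4.68 and 11.1 CPM.

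The Ugt2 family, which conjugates steroids and bile acids, was counted at week 3. Of 9 members tested, 7 rose and none fell in the duodenum, and 5 rose and none fell in the ileum. Ugt2b34 held most of the family's counts. It was at 204, 249 and 240 CPM at week 2, at 1233, 1277 and 993 at week 3 and at 938, 1106 and 1264 at week 4 in the duodenum. In the ileum Ugt2b34 was at 279, 320 and 339 CPM at week 2, at 908, 1039 and 787 at week 3 and at 899, 519 and 465 at week 4. All week 3 samples lay above all week 2 samples. The rises were 2.34 ± 0.21 and 1.54 ± 0.20 (log2, edgeR, adjusted p = 3.8e-11 and 1.4e-07).

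Ugt2a3 rose more steeply from a lower level. It was at 9.77, 10.2 and 9.66 CPM at week 2 and at 124, 143 and 109 at week 3 in the duodenum, and at 7.72, 6.89 and 7.26 and then at 61.5, 95.8 and 58.2 in the ileum. At week 4 it was at 101, 138 and 143 CPM in the duodenum and at 74.6, 11.5 and 18.7 in the ileum, where sample 1 stood apart from the other two. The rises were 3.66 ± 0.38 and 3.30 ± 0.38 (edgeR, adjusted p = 2.1e-09 and 9.8e-09). Ugt2b35, Ugt2b36 and Ugt2b5 rose at week 3 by 1.06 ± 0.19, 2.01 ± 0.23 and 1.85 ± 0.23 in the duodenum and by 0.82 ± 0.19, 1.42 ± 0.22 and 0.58 ± 0.22 in the ileum. The ileal call of Ugt2b5 (adjusted p = 0.046) was lost without any one of 5 samples, ileum week 2 samples 1 and 2 and ileum week 3 samples 1, 2 and 3 (highest adjusted p = 0.257), with a sex index in the model (0.0566), with no filter on low counts (0.0854) and with the day 6 samples numbered 3 (0.1005). Ugt2b36 and Ugt2b5 had been higher at birth: Ugt2b5 was at 143, 110 and 106 CPM at day 0 in the ileum and at 20.1, 30.6 and 31.5 at week 2, a change of -2.13 ± 0.23 (adjusted p = 7.3e-09).

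Among the sulfotransferases, Sult1b1 and Sult1d1 carried nearly all counts. Sult1d1, whose enzyme sulfates catecholamines and other phenols, was at 529, 694 and 631 CPM at day 0, at 309, 245 and 235 at week 2, at 810, 712 and 491 at week 3 and at 277, 300 and 295 at week 4 in the duodenum. In the ileum it was at 458, 627 and 528, at 273, 273 and 316, at 653, 619 and 531 and at 299, 176 and 253 CPM at the same ages. Over these 4 ages Sult1d1 went down, up and down in each region. Between them the regions differed: at day 8 it was at 110, 102 and 114 CPM in the duodenum and at 261, 197 and 233 in the ileum, and the interaction of region and age over 8 ages was called (edgeR, adjusted p = 0.0038). Its step at week 3 was 1.35 ± 0.21 in the duodenum and 1.06 ± 0.21 in the ileum (log2, edgeR, adjusted p = 6.3e-06 and 0.00014), and its step to week 4 was -1.21 ± 0.21 and -1.31 ± 0.21 (adjusted p = 8.9e-05 and 1.7e-05). Sult1b1, which sulfates thyroid hormone, was at 269, 197 and 215 CPM at week 2 and at 453, 529 and 368 at week 3 in the duodenum, and at 157, 157 and 175 and then at 321, 424 and 328 in the ileum. It rose by 0.99 ± 0.20 and 1.13 ± 0.20 (adjusted p = 0.00036 and 3.5e-05) and was not called from week 3 to week 4 in either region. Of the low members, Sult1c2 was the 1 of 4 sulfotransferases tested that rose between birth and week 2, by 3.96 ± 0.54 in the duodenum and 3.15 ± 0.53 in the ileum (adjusted p = 5.9e-07 and 4.0e-05), with no sample above 4.04 CPM.

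The Akr1c genes of chromosome 13, whose enzymes reduce steroids and other carbonyls, had their highest summed level at birth among the 4 ages compared, 1060 CPM in the duodenum and 1160 CPM in the ileum. Akr1c19 was at 531, 703 and 625 CPM at day 0, at 137, 99.7 and 88.8 at week 2, at 283, 289 and 198 at week 3 and at 131, 49.8 and 128 at week 4 in the duodenum. In the ileum Akr1c19 was at 754, 784 and 748 CPM at day 0, at 169, 168 and 170 at week 2, at 194, 176 and 124 at week 3 and at 17.1, 12.1 and 14.2 at week 4. The ileal samples of week 4 lay below every other ileal sample. The change from day 0 to week 4 was -2.59 ± 0.25 (log2, SE) in the duodenum and -5.72 ± 0.29 in the ileum (edgeR, adjusted p = 4.9e-11 and 1.9e-18). Akr1c13 was at 145, 144 and 110 CPM at week 3 and at 21.3, 22.9 and 23.6 at week 4 in the ileum, a change of -2.56 ± 0.23 (adjusted p = 1.0e-10). In the duodenum Akr1c13 was at 221, 238 and 187 CPM at week 3 and at 157, 56.9 and 160 at week 4. The duodenal change was -0.79 ± 0.21 (adjusted p = 0.0096) and was not called without duodenum week 4 sample 2 (adjusted p = 0.115). Akr1c12 changed from week 3 to week 4 in the ileum by -1.50 ± 0.20 (adjusted p = 5.1e-07). Akr1c14, which acts on 3-keto steroids, rose at week 3 in both regions, by 1.20 ± 0.27 and 1.52 ± 0.27, and fell by week 4, by -1.43 ± 0.27 and -1.12 ± 0.27.

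Of the Akr1b genes, Akr1b7 changed most. In the duodenum it was at 11.2, 40.9 and 69.6 CPM at day 0, at 3.29, 1.45 and 1.66 at week 2, at 113, 122 and 56.1 at week 3 and at 83.2, 99.7 and 72.8 at week 4. In the ileum it was at 0.296, 11.5 and 3.82 CPM at day 0, at 0.190, 0.233 and 0.490 at week 2, at 15.2, 33.2 and 16.3 at week 3 and at 47.4, 43.5 and 45.8 at week 4. All week 3 samples of Akr1b7 lay above all week 2 samples of their region. It rose at week 3 by 5.51 ± 0.67 (log2, SE) in the duodenum and 6.18 ± 0.76 in the ileum (edgeR, adjusted p = 1.1e-07 and 9.3e-08). Akr1b8 rose by 2.39 ± 0.44 in the duodenum (adjusted p = 7.7e-05). In the ileum its rise of 1.18 ± 0.43 (adjusted p = 0.035) was not called without ileum week 2 sample 1, 2 or 3 or ileum week 3 sample 1 or 2 (highest adjusted p = 0.105). Akr1b3, the aldose reductase of sugar metabolism, was not called in either region for week 2 against day 0, week 3 against week 2, week 4 against week 3 or week 4 against day 0. The test over 8 ages called Akr1b3 in the duodenum (adjusted p = 3.2e-05) and not in the ileum (0.33).

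**Figure D4:**
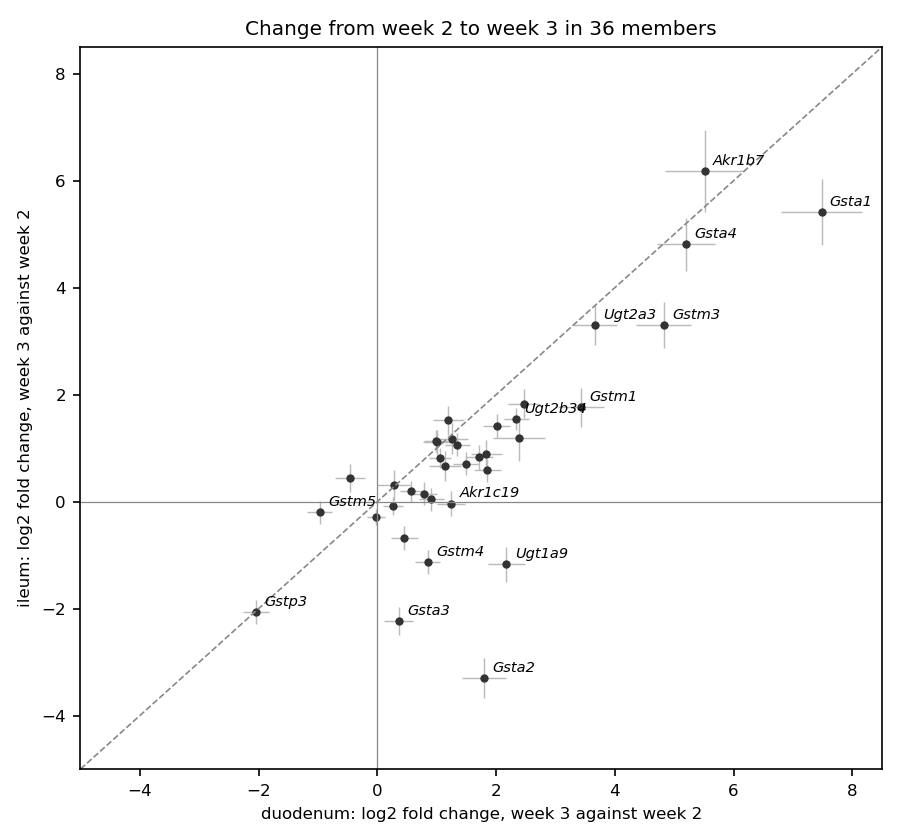
Log2 fold change from week 2 to week 3 of the 36 members, duodenum on the horizontal axis and ileum on the vertical axis; bars are standard errors and the dashed line marks equal change. Gsta2, Gsta3, Gstm4, Gstp2, Gstt3, Ugt1a9 and Akr1c19 lie below 0 for the ileum and above 0 for the duodenum, and Gsta1 lies farthest right at 7.48.

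Whether the week 2 to week 3 change itself differed between regions was tested as a difference of differences. Of 49 members 6 were called, all with the smaller or more negative change in the ileum, against 1.38% of all genes called, 0.755% that were larger and 0.623% that were smaller. They were Gsta2, Gsta3, Gstm4, Ugt1a9, Ugt2b5 and Akr1c19. The calls of Ugt2b5 and Akr1c19 (edgeR, adjusted p = 0.027 and 0.038) were each lost without any one of several samples. For Ugt2b5 these were duodenum week 2 samples 2 and 3, duodenum week 3 sample 2, ileum week 2 samples 2 and 3 and ileum week 3 samples 2 and 3 (adjusted p from 0.0536 to 0.0970). For Akr1c19 they were duodenum week 2 samples 2 and 3, duodenum week 3 samples 1 and 2, ileum week 2 samples 1, 2 and 3 and ileum week 3 samples 2 and 3 (adjusted p from 0.0676 to 0.126). The count ran from 4 to 6 with 1 sample left out. It was 13 without the day 4 samples and 13 when the model held just the compared groups. For the change from day 0 to week 4, 24 of 49 members were called, again all lower in the ileum, against 5.99% of all genes called, 3.14% that were larger and 2.85% that were smaller. The interaction of region and age over all 8 ages was called in 31 members, against 22.4% of all genes.

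More members were called between regions at week 4 than at day 0 or week 2. At day 0, 6 of 49 members were called, 5 lower and 1 higher in the ileum, against 6.1% of all genes called, 2.97% that were higher and 3.14% that were lower. The higher one was Ugt2b36, by 1.67 ± 0.22 on the log2 scale (edgeR, adjusted p = 1.9e-05). It was at 42.3, 35.6 and 29.0 CPM in the ileum and at 15.6, 11.7 and 6.29 in the duodenum. The count at day 0 was 2 without duodenum day 0 sample 3, 3 without duodenum day 0 sample 2 and 3 without ileum day 0 sample 1. At week 2, 16 members were called, 9 lower and 7 higher in the ileum, against 22.4% of all genes called, 10.6% that were higher and 11.8% that were lower. Averaged over ages, 28 were lower and 8 higher, against 62.1% of all genes called, 31.9% that were higher and 30.2% that were lower.

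At week 4 the ileum was lower in 33 of 49 members and higher in none, against 28.4% of all genes called and 13.9% that were lower. The median log2 difference was -1.48 for the members and 0.08 for all genes. By family the lower members were 5 of 5 alpha, 7 of 7 mu, 3 of 3 pi, 3 of 3 theta and 1 of 1 kappa transferases tested, 5 of 7 Ugt1, 4 of 9 Ugt2, 1 of 4 Sult1, 1 of 4 Akr1b and 3 of 6 Akr1c genes. The differences were -3.41 ± 0.55 for Gsta1, -3.36 ± 0.36 for Ugt1a9, -3.15 ± 0.29 for Gstm6, -3.07 ± 0.43 for Gstm3, -2.83 ± 0.25 for Akr1c19 and -2.45 ± 0.28 for Gstt1 (edgeR, adjusted p from 5.4e-10 to 4.1e-05). For these 6 genes no ileal sample reached any duodenal sample. Sult1d1, Akr1b3, Akr1c14 and Ugt2b36 were not called, with differences of -0.26 ± 0.21, -0.06 ± 0.28, -0.20 ± 0.27 and 0.11 ± 0.22. The smallest called difference, -0.43 ± 0.15 for Gstt2 (adjusted p = 0.034), was lost without duodenum week 4 sample 1 or 3 or ileum week 4 sample 1 or 3 (highest adjusted p = 0.0954). That of Sult1b1 (-0.56 ± 0.20, adjusted p = 0.035) was lost without duodenum week 4 sample 3 or ileum week 4 sample 2 or 3 (highest adjusted p = 0.216).

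Markers of cell types were read beside this difference. Of 9 enterocyte markers at week 4, 3 were lower in the ileum (Fabp1 by -2.64 ± 0.50, Apoa4 by -3.12 ± 0.41 and Alpi by -1.66 ± 0.24, log2, edgeR) and 6 were not called. The epithelial markers Vil1, Epcam, Cdh1 and Krt20 differed by -0.03 ± 0.17, 0.17 ± 0.17, -0.13 ± 0.17 and -0.05 ± 0.22. The median over the 9 markers was -0.40. The summed enterocyte markers ran from 9286 to 19679 CPM in the ileum and from 22646 to 33176 in the duodenum. The summed markers of leukocytes, none of them at 0, ran from 135 to 352 CPM in the ileum and from 68.0 to 75.6 in the duodenum. The summed markers of gut patterning (Pdx1, Gata4, Fabp6 and Slc10a2) were at 187, 1922 and 2243 CPM in the 3 ileal samples, in order of size and not of sample number. They ran from 154 to 184 in the duodenum. Ileal samples ran from 40.6 to 55.3 CPM at week 2 and from 1185 to 1492 at week 3. The sum joins markers of the proximal and the distal gut, so alone it does not place the low ileal sample along the gut. In that sample Fabp6 and Slc10a2 together cannot exceed the sum of 187 CPM, which is near the duodenal range. Where it was taken along the gut was not tested, and the results at week 4 in the ileum include it. Without each ileal sample of week 4 in turn, 30 to 32 members were called. The summed markers of large bowel epithelium ran from 1792 to 2677 CPM in the ileum, none at 0, and from 563 to 960 in the duodenum, where Car1 was at 0. Smooth muscle markers ran from 34.5 to 194 CPM in the ileum and from 10.3 to 44.5 in the duodenum, far below the enterocyte sums. How much muscle wall the samples held was not tested. At week 3 against week 2, Krt20 rose by 2.87 ± 0.24 in the duodenum and 4.93 ± 0.26 in the ileum and Vil1 by 0.88 ± 0.17 and 1.49 ± 0.17, while Epcam and Cdh1 were not called. Apoa4 fell by 1.42 ± 0.38 on the log2 scale in the duodenum and by 1.09 ± 0.38 in the ileum at that step (adjusted p = 0.0062 and 0.028), and the medians over the 9 markers were -0.21 and 0.20. The summed markers of liver cells, of which Serpina3k was at 0 in both regions and Ahsg and Fgb in the duodenum, ran from 399 to 649 CPM in the ileum and from 1071 to 1571 in the duodenum at week 4. The part of these cell types in the members' differences was not tested.

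**Figure D5:**
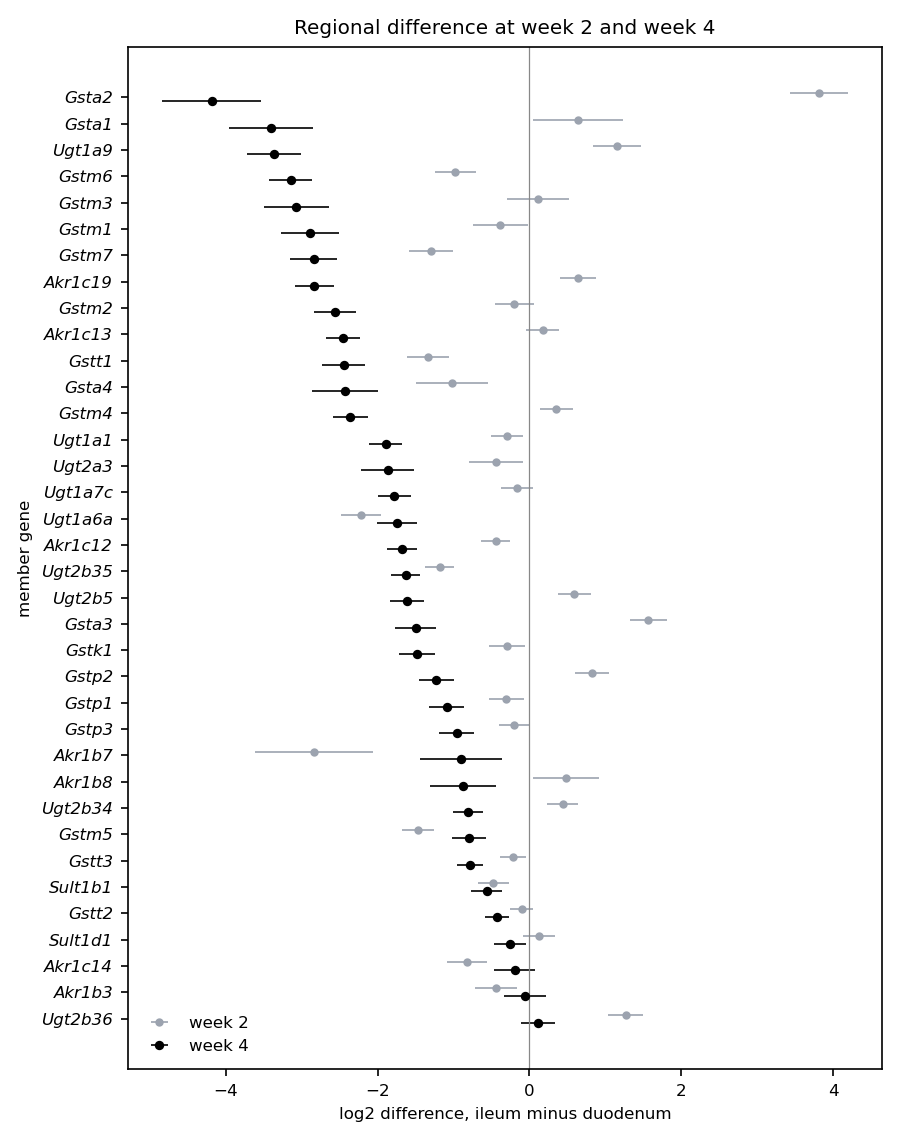
Log2 difference of ileum minus duodenum for the 36 members (rows) at week 2 (grey) and week 4 (black), with standard errors. At week 4 only Ugt2b36, at 0.11, lies above 0, while at week 2 the values spread on both sides, up to 3.82 for Gsta2.

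Genes that supply or regulate conjugation were counted from week 2 to week 3, when 7.7% of all genes tested rose and 10.6% fell in the duodenum and 12.9% rose and 13.9% fell in the ileum. Of 13 genes of glutathione synthesis and NRF2 targets, 8 rose and 1 fell in the duodenum and 5 rose and 4 fell in the ileum. Nqo1, a quinone reductase, and Gclc, which makes the first bond of glutathione, rose by 1.71 ± 0.28 and 1.46 ± 0.29 in the duodenum (edgeR, adjusted p = 1.5e-05 and 0.00018) and changed by 0.31 ± 0.28 and -0.06 ± 0.28 in the ileum. There Gpx2 and Txnrd1 rose most, by 2.18 ± 0.37 and 1.27 ± 0.15, against 1.25 ± 0.36 and 0.97 ± 0.15 in the duodenum. The heme oxygenase gene Hmox1 fell in both regions, by 2.72 ± 0.38 in the duodenum and 3.96 ± 0.40 in the ileum on the log2 scale. So the list did not move as one.

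Of 8 genes for the cosubstrates, 3 rose and 1 fell in the duodenum and 2 rose and 1 fell in the ileum. Papss2, which makes the sulfate donor, rose by 2.85 ± 0.33 and 2.02 ± 0.32 (edgeR, adjusted p = 2.1e-08 and 5.6e-06). Ugdh, which makes UDP-glucuronic acid, rose by 1.10 ± 0.19 in the duodenum and fell by 0.50 ± 0.18 in the ileum (adjusted p = 1.8e-05 and 0.040). Of 11 sensors of foreign compounds and bile acids, 2 rose and 2 fell in the duodenum and 3 rose and 2 fell in the ileum. Nr1i3 rose by 1.08 ± 0.28 and 0.93 ± 0.28, and Nr1h4, the bile acid receptor FXR, fell by 0.91 ± 0.20 and 0.82 ± 0.20. Of 17 other conjugating enzymes tested, 5 rose and 1 fell in each region, and Sult2b1 rose by 3.95 ± 0.24 and 4.09 ± 0.24 while Sult6b1 fell by 1.61 ± 0.40 and 1.14 ± 0.37. Of 8 efflux pumps, 3 rose and 1 fell in the duodenum and 2 rose and 2 fell in the ileum. Abcb1a rose by 2.77 ± 0.25 and 2.41 ± 0.25, and Abcc2, the apical pump for glucuronides, fell by 1.42 ± 0.33 in the ileum and changed by 0.65 ± 0.32 in the duodenum (adjusted p = 0.17).

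Promoters were searched for short motifs in windows of 300 bases, 250 before to 50 after the start, on both strands (RefSeq, GRCm38.p6), with 52 of 58 members matched. The core of the antioxidant response element, TGACNNNGC, occurred in 5 members (9.62%), Akr1c19, Akr1cl, Gsta3, Gstm5 and Gstm7, and in 14.0% of 27025 genes. The xenobiotic response element core GCGTG occurred in 12 members (23.1%), among them Gsta1, Gstm1 and Gstp1, and in 35.2% of genes. An HNF4 site, CAAAGTCCA, occurred in Sult1b1 and in 0.555% of genes. These matches are letters in a window and say nothing of binding. The window before Gsta3, which fell at weaning in the ileum, is shown with its match to the antioxidant core in capitals, from chr1:21240335-21240584 on the plus strand.
Gsta3: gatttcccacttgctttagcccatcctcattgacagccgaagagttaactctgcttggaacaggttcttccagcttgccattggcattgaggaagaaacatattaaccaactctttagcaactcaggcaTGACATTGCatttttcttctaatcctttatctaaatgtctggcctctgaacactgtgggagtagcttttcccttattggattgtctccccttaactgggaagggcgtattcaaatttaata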

How the data were processed

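Estimated counts per gene came from the authors' deposited table, made by the authors from total RNA libraries with STAR 2.6.1d, Salmon 0.14.2 and mm10, per the submitters' processing notes; the annotation release is not given in the sources used here. A second kind of deposited values is a normalized signal, the estimated count divided by 1 size factor per sample, which the authors made with DESeq2 1.30.1 per the submitters' processing notes; it served as an alternative only and holds no day 4 samples.

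Estimated counts of 46 samples in 16 groups were rounded, filtered with filterByExpr, scaled by TMM (trimmed mean of M values) and fitted with edgeR 4.0.16 in R 4.3.3, with 1 mean per group and a robust quasi-likelihood test. Adjusted p-values are Benjamini-Hochberg over 21986 genes, with calls at 0.05, and errors of log2 changes are the change over the root of F. CPM given without an error are single samples, except those called a mean, sum, median or range or given per kilobase. Library totals were 16824021 to 65042327 counts. The 2 day 6 samples numbered 3 were left out. Members with a mean of at least 10 CPM in some group are named, others are given by counts and ranges, and at most 2 pathway genes per list, direction and region are named for the largest called change. Coordinates and coding sequences are from GENCODE release M21 (54495 of the gene IDs matched, and all 58 members) and promoters from RefSeq. The members and gene lists were chosen with earlier results of these data known. Alternatives were RLE size factors, 2 other filters, DESeq2 1.42.0, limma 3.58.1 on log2 of the signal plus 1, only the compared groups, a replicate block, a sex index, other sets of samples, and leaving out each sample. Scripts were tested on simulated counts of 21986 genes, with 200 genes of any level changed in the duodenum at week 4. The test of week 4 against week 3 called 32% of 2-fold and 71% of 4-fold changes. A member that was not called may therefore still have changed. Members at 0 in a whole group have fitted changes that depend on the prior count; without them the median changes from week 2 to week 3 were 1.42 in the duodenum and 0.73 in the ileum.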

Additional observations from a re-analysis of the deposited data

Results flagged for a closer look

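The change between ages differed between the regions in the members listed here, by a test of the difference itself (edgeR quasi-likelihood test, adjusted p under 0.05). Values are the ileal log2 change minus the duodenal one. From week 2 to week 3 the difference was -5.09 for Gsta2, -3.35 for Ugt1a9, -2.59 for Gsta3, -1.98 for Gstm4, -1.28 for Akr1c19 and -1.27 for Ugt2b5.

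From day 0 to week 4 the glutathione transferases differed by -3.46 for Gsta2, -3.26 for Gsta1, -2.06 for Gsta3 and -2.06 for Gsta4 in the alpha class. In the mu class the differences were -2.63 for Gstm4, -2.59 for Gstm1, -2.55 for Gstm2, -2.44 for Gstm6, -2.35 for Gstm3 and -2.03 for Gstm7. Gstt1 differed by -2.01, Gstp2 by -1.55, Gstp3 by -1.46 and Gstt3 by -0.81. Among glucuronosyltransferases the differences were -3.53 for Ugt1a9, -2.20 for Ugt2b5, -1.75 for Ugt1a7c, -1.63 for Ugt1a1, -1.56 for Ugt2b36, -1.37 for Ugt2b35 and -1.18 for Ugt2b34. Among the reductases they were -3.13 for Akr1c19, -2.41 for Akr1c13 and -1.32 for Akr1c12. All 24 were negative. The difference for Gsta4 was not called without any one of 7 samples, duodenum day 0 sample 1 or 2, duodenum week 4 sample 1 or 3, ileum day 0 sample 2 or 3 or ileum week 4 sample 2 (adjusted p from 0.0571 to 0.0948). The difference for Gstt3 was not called without duodenum day 0 sample 1 or 2, duodenum week 4 sample 3, ileum day 0 sample 1 or ileum week 4 sample 3 (adjusted p from 0.0537 to 0.118).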

How the results depend on the processing

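Of 294 called changes of named members, 214 were called under all alternatives run, 80 lost the call under at least 1 and none changed direction. Counts of members called moved by more than 1.5 times in 3 comparisons, and the cause was not tested. For ileum against duodenum at day 0 the count of 6 was 3 with the day 6 samples numbered 3, 1 with a model of the compared groups alone and 2 to 6 with 1 sample left out. For the difference between regions in the week 2 to week 3 change the count of 6 was 13 without the day 4 samples and 13 with the compared groups alone. For week 4 against week 3 in the duodenum the count of 14 was 8 to 14 with 1 sample left out. At week 4 the 33 members lower in the ileum were 25 with the compared groups alone, when the call was lost for Gsta4, Gstp3, Ugt2a3 and Ugt2b34 among others (adjusted p = 0.0599, 0.0692, 0.123 and 0.0985). The labels do not say that numbers pair samples, and the numbers were to be taken as pairs where every same-numbered pair of the regions correlated at over 0.1. This held in 16 of 23 pairs (from -0.36 to 0.67), so the numbers were not taken as pairs. Mean r was 0.155 for same-numbered pairs and -0.079 for other pairs. The group mean was subtracted from each sample first, which ties these means to each other, so their contrast is no independent sign of pairing. Of 23 duodenal samples 17 correlated best with their own number, a hint from the data and not the design. For comparisons of ages the replicate block joined samples of equal number within a region, across ages. It gave counts of 34 and 26 for week 3 against week 2 in the duodenum and ileum, and Ugt2b5 lost its ileal call (edgeR, adjusted p = 0.0605). That block does not test a pairing of the regions. For comparisons of regions the block joined samples of equal age and number, and the count at week 4 was 33.

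Counts over all genes moved more. With the compared groups alone, 2491 genes in place of 6234 were called between regions at week 4, 7426 in place of 4922 at week 2, 1527 in place of 3534 for week 4 against week 3 in the ileum, 584 in place of 303 for the regional difference in the week 2 to week 3 change and 377 in place of 1317 for that from day 0 to week 4. With the day 6 samples numbered 3, the counts were 578 in place of 1342 between regions at day 0, 2561 at week 2, 947 in place of 4930 for the interaction, 1802 in place of 2715 for week 2 against day 0 in the ileum, 113 for the week 3 and 697 for the week 4 difference of changes. Without the day 4 samples they were 2419 at day 0, 9512 for the interaction, 672 and 3146 for these differences and 4568 in place of 2794 for week 4 against week 3 in the duodenum. DESeq2 gave 577 for the week 3 difference, limma gave 6231 in place of 4014 for week 3 and 5330 for week 4 in the duodenum, and no filter gave 894 at day 0.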
